A study of Mus musculus with 8 samples.

Results

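The smooth muscle contractile genes described here are Acta2, Actg2, Myh11, Tagln, Cnn1, Des, Mylk, Lmod1, Smtn and Synpo2, chosen by gene symbol in the array's annotation. These 10 genes are read by 16 of the 25697 probes, among 16593 genes on the array. RNA of mouse intestine and colon, each with or without overexpression of the pluripotency factor Nanog, was hybridized to 8 Illumina bead arrays, 2 per group. Each tissue thus has a control group and a Nanog group, 4 in all. The labels speak of biological replicates but tie no array to an animal, so p-values measure the spread between these arrays. Strain, age, the construct that carried Nanog, the duration of its expression and the layers of the gut wall that were taken are not given in the sources used here. Nor do they say if a mouse gave both tissues.

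Smooth muscle forms the circular and longitudinal coats of the gut wall, the muscularis mucosae and the wall of blood vessels, and it contracts when myosin, phosphorylated by myosin light chain kinase, pulls on actin filaments. Its contractile genes are known to be switched on by serum response factor, Srf, with its coactivator myocardin, Myocd, through a short A- and T-rich DNA element, the CArG box. In RNA of whole tissue, fewer smooth muscle cells and less RNA per cell cannot be told apart.

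The promoter sequences below are shown because they bear on this shared element. RefSeq promoters of assembly GRCm38.p6, running from 250 bases before to 50 bases after the start of the gene, were matched for 7 of the 10 genes. Those of Actg2, Myh11 and Tagln were not matched. A CArG box was searched as CC, then 6 letters that are each A or T, then GG, a pattern that reads alike on both strands. It was present in 0 of the 7 promoters and in 1.63% of all 32851 promoters. After that result a looser pattern was searched, the same but with at least 5 of the 6 middle letters A or T, which 9.98% of all promoters hold. Of the 7 genes only Acta2 held it, with 2 matches whose first letters lie at -84 and -34 from the gene start. Capitals mark these matches in the Acta2 promoter, chr19:34255324-34255623 on the minus strand. The Smtn promoter, chr11:3539243-3539542 on the minus strand, is printed beside it because Smtn had the largest difference with Nanog among the members, and it has no match to either pattern.
Acta2: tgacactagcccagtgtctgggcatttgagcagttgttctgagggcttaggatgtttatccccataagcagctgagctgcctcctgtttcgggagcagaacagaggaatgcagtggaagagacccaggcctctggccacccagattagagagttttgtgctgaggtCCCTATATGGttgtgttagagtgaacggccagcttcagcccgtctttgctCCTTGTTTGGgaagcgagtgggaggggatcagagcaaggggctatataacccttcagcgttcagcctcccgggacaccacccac
Smtn: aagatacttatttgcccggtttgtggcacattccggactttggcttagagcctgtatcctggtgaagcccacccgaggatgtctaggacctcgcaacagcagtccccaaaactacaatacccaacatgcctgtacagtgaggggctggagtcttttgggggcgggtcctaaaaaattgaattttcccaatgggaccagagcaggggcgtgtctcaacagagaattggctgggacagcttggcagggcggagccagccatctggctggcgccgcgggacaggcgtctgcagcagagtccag
A match describes letters in this window only, and no binding was measured. Neither pattern allowed a change in the outer CC or GG, so elements with such a change were not searched for.

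A probe counts as above background where its detection p-value is under 0.01, which held for 10652 to 11993 probes of an array. Replicates correlated with r from 0.902 to 0.967. The single Nanog probe was below background on all 8 arrays, with signals from 80.59 to 94.62, so it does not check the labels. The 11 tested epithelial marker genes were above background on all 8 arrays, alongside the muscle genes. Replicate 2 of both Nanog groups stood apart in pancreatic acinar genes, with a mean log2 level over 19 genes of 14.17 in intestine and 13.60 in colon, against 6.07 to 10.29 on the other arrays. Levels below are quantile-normalized log2 intensities, and a difference of 1 is 2-fold. Levels of different probes are not comparable with each other, so genes are compared only by their differences between groups.

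All of the contractile genes except Synpo2 were measurable. Acta2, smooth muscle alpha-actin, had deposited signals from 11037 to 23319 on its brightest probe, and Actg2, the enteric gamma-actin, from 7771 to 16728. Myh11, the smooth muscle myosin heavy chain, Des, the intermediate filament protein desmin, Mylk, the myosin light chain kinase, and Smtn, the actin-binding protein smoothelin, were above background on all 8 arrays. So were Tagln, which encodes the actin-binding protein SM22-alpha, and Lmod1, a nucleator of actin filaments. Cnn1, calponin, was close to background, with signals from 107.93 to 129.19, and did not pass on replicate 1 of intestine without Nanog (detection p-value 0.0313). Synpo2, an actin-bundling protein of the Z-line and dense bodies, was below background on all 8 arrays, with signals from 76.37 to 93.54 and detection p-values from 0.223 to 0.891, and entered no test. The tests below therefore cover 9 genes.

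**Figure D1:**
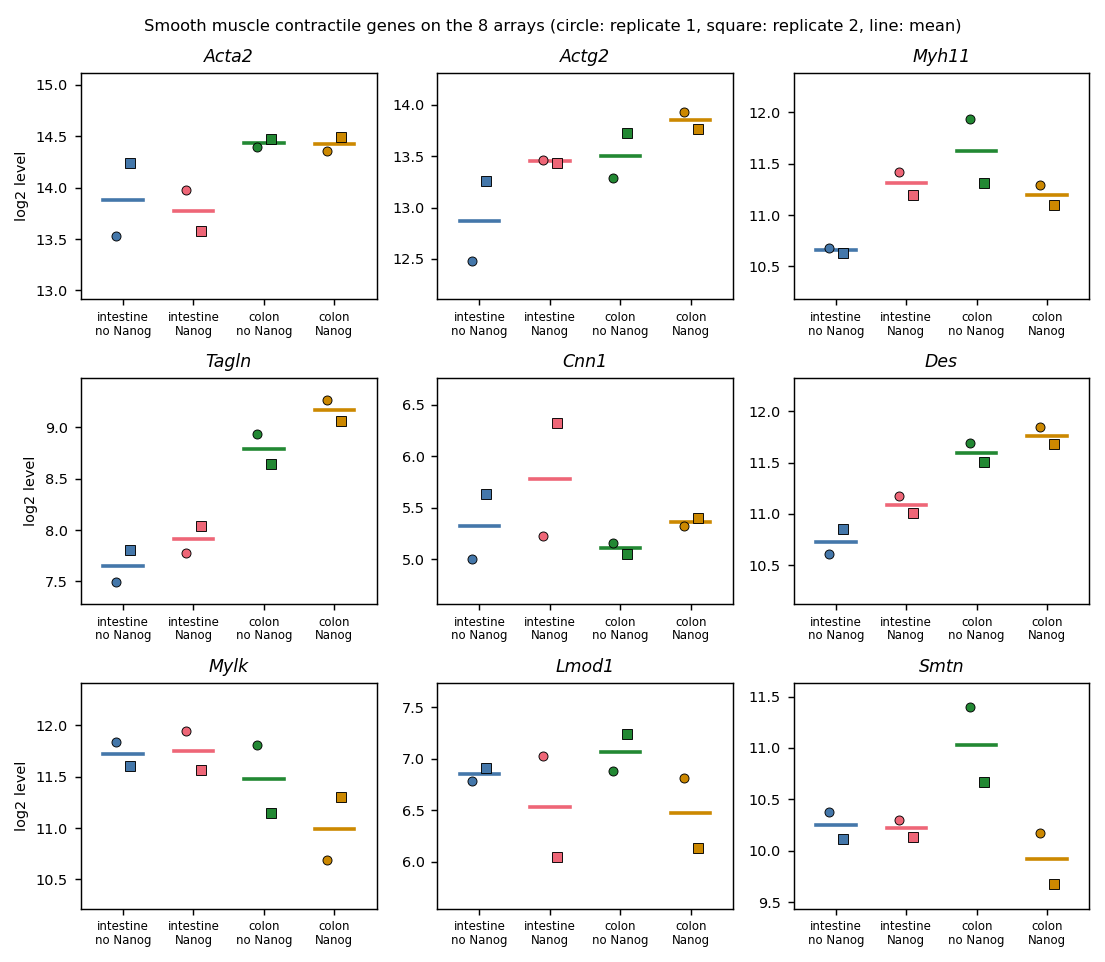
Quantile-normalized log2 level of each of the 9 tested genes (y axis, spanning the same 2.2 log2 units in each panel) in the 4 groups (x axis). Points are single arrays, a circle for replicate 1 and a square for replicate 2, and lines are means of 2 arrays. Acta2, Tagln and Des were higher on every colon array than on every intestine array, and Smtn was highest on the colon arrays without Nanog.

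Tagln was the one contractile gene that differed between groups in limma's moderated test, and it was higher in colon than in intestine with and without Nanog. Its log2 levels were 7.5 and 7.8 in intestine without Nanog and 7.78 and 8.04 with Nanog. In colon they were 8.94 and 8.64 without Nanog and 9.26 and 9.07 with Nanog. Every colon array lay above every intestine array. Without Nanog the difference of colon minus intestine was 1.14 ± 0.24 log2 units (SE, n = 2 per group, limma adjusted p = 0.0419), a 2.20-fold higher level. With Nanog it was 1.26 ± 0.24 (SE, limma adjusted p = 0.0281), 2.39-fold. The call without Nanog was lost in 15 of 24 alternatives, among them the replicate number as a block (limma adjusted p = 0.0516), and the call with Nanog in 7 of 24. Of the 8 fits that each left out 1 array, 7 lost the call without Nanog, all but that without intestine control replicate 2, and 6 lost the call with Nanog, all but those without an intestine control. The adjusted p then reached 0.221 without colon control replicate 1 and 0.199 without colon Nanog replicate 1, while the difference stayed between 0.99 and 1.29 and between 1.13 and 1.39. Across all genes tested 473 of 8607, 5.5%, were called between the tissues without Nanog (2.44% higher in colon), and 572, 6.65%, with Nanog (3.18% higher). At an unadjusted p under 0.05 the members numbered 4 and 2 of 9, beside 20.8% and 22% of all genes.

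Without Nanog most other contractile genes stood higher in colon too, though none passed the test. Of the 9 genes 7 had higher and 2 lower values in colon, with a median difference of 0.63 log2 units beside 0.11 over all genes. In 6 genes both colon arrays lay above both intestine arrays, where 48.1% of all genes had groups that did not overlap and 30.2% had them with colon higher. Desmin had log2 levels of 10.61 and 10.85 in intestine and 11.69 and 11.50 in colon, a difference of 0.87 ± 0.22 (SE, limma adjusted p = 0.0727). Myh11 levels of 10.68 and 10.63 in intestine and 11.93 and 11.31 in colon gave a difference of 0.96 ± 0.27 (SE, limma adjusted p = 0.0945). For both genes the spread between the replicates was smaller than the gap between the tissues. Smoothelin, discussed further below, had 0.79, the actins Acta2 (on its brightest probe) and Actg2 had 0.55 and 0.63, and their adjusted p-values ran from 0.216 to 0.348. Lmod1 had 0.22, while Cnn1 and the kinase gene Mylk had -0.22 and -0.24.

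With Nanog the tissue contrast of the contractile genes was mixed, apart from Tagln. Of the 9 genes 4 had higher and 5 lower values in colon, with a median of -0.06 beside 0.10 over all genes. Groups did not overlap for 5 of the 9, 4 higher and 1 lower in colon, against 58.7% of all genes, 35.1% higher and 23.6% lower. Desmin levels of 11.17 and 11.01 in intestine and 11.84 and 11.68 in colon gave a difference of 0.67 ± 0.22 (SE, limma adjusted p = 0.135). Both colon arrays lay above both intestine arrays for Acta2, with 0.65, and for Actg2, with 0.40. Mylk was the reverse, with levels of 11.94 and 11.56 in intestine and 10.69 and 11.30 in colon, a difference of -0.76 ± 0.33 (SE, limma adjusted p = 0.237). Myh11 had -0.12 and Smtn -0.29, against 0.96 and 0.79 without Nanog.

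**Figure D2:**
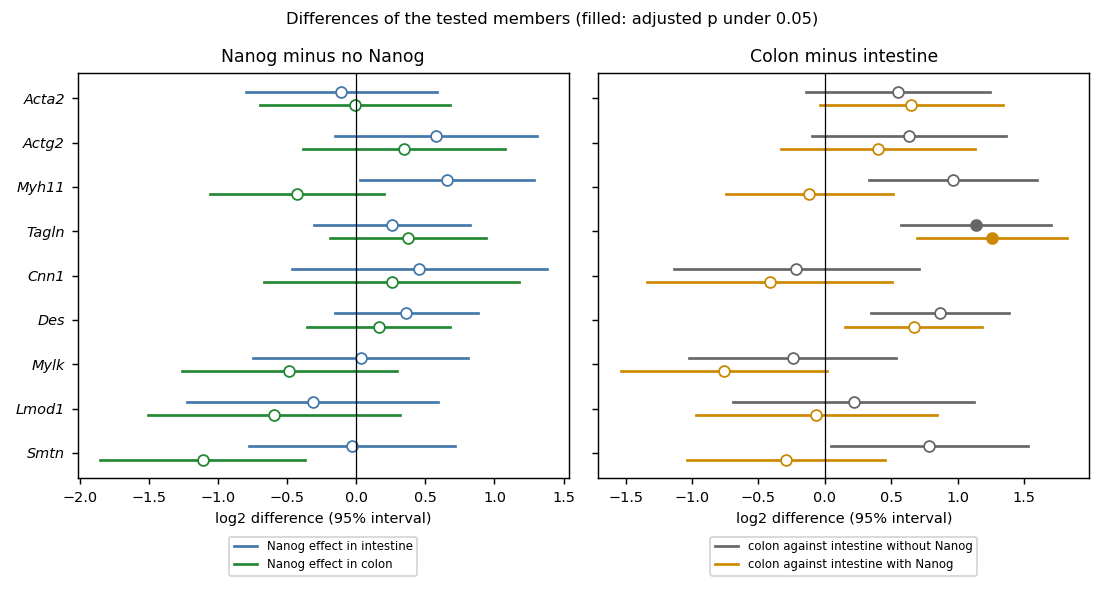
Differences in log2 level (x axis) of the 9 tested genes (y axis) with Nanog minus without Nanog (left) and in colon minus intestine (right). Points are limma estimates and bars 95% intervals. Filled points, at 1.14 and 1.26 for Tagln, have an adjusted p under 0.05. The interval of Smtn with Nanog in colon runs from -1.85 to -0.37.

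Comparing arrays with and without Nanog asked whether the contractile genes change with the overexpressed factor. By limma 0 of 9 were called in intestine, 0 of 9 in colon and 0 of 9 on average of the tissues, with 1 gene at an unadjusted p under 0.05 in each, beside 8.69%, 12.5% and 16.5% of all genes. Over all genes 14 of 8607, 0.163%, were called in intestine, 19, 0.221%, in colon and 103, 1.2%, on average. In intestine 6 genes had higher and 3 lower values with Nanog, with a median of 0.26 log2 units beside -0.01 over all genes. In colon 4 had higher and 5 lower values, with a median of -0.01 beside -0.01. Adjusted p-values ran from 0.558 to 0.989 in intestine and from 0.241 to 0.992 in colon. Scaling arrays to a common median, which moved the median of all genes by -0.38 in intestine, gave 3 higher and 6 lower there.

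Smoothelin had the largest difference with Nanog, in colon. Its log2 levels were 11.40 and 10.67 in colon without Nanog and 10.17 and 9.68 with Nanog. Both Nanog arrays lay below both controls. The difference was -1.11 ± 0.31 log2 units (SE, 95% interval -1.85 to -0.37), equal to a 2.16-fold lower level, with an unadjusted p of 0.00948 and a limma adjusted p of 0.241. Its other probes gave -1.12 and -1.25 in colon, so all 3 were lower there by a like amount. In intestine, where levels were 10.38 and 10.12 on control arrays and 10.30 and 10.13 on Nanog arrays, the groups overlapped and the difference was -0.03 ± 0.31 (SE, 95% interval -0.77 to 0.71). The difference of the effects in the 2 tissues was -1.08 ± 0.45 (SE, limma adjusted p = 0.998). That comparison called 0 of 9 members and 0% of all genes by limma, with 2 members and 4.19% of all genes at an unadjusted p under 0.05. Colon without Nanog is the high group both here and in the contrast of the tissues, and both comparisons use the same 2 colon control arrays.

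Myh11 levels with Nanog lay above the controls in intestine and below them in colon. In intestine the levels were 11.42 and 11.20 with Nanog, both above the controls at 10.68 and 10.63, a difference of 0.65 ± 0.27 (SE, limma adjusted p = 0.558). In colon they were 11.29 and 11.10 with Nanog, both below the controls at 11.93 and 11.31, a difference of -0.43 ± 0.27 (SE, limma adjusted p = 0.563). Myh11 has 1 probe on the array, and neither difference passed the test. Groups that did not overlap were seen for 3 of 9 members in intestine, all higher, where 32.5% of all genes had them, 17% higher. In colon they were seen for 6 of 9, 3 higher and 3 lower, where 52.9% of all genes had them, 26.3% higher and 26.6% lower.

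The actin genes and their filament partners showed small differences with Nanog. Actg2 levels were 12.48 and 13.26 in intestine without Nanog and 13.46 and 13.43 with Nanog, and in colon 13.28 and 13.73 on control arrays and 13.93 and 13.77 on Nanog arrays. The Nanog arrays were the higher ones in both tissues, by 0.58 ± 0.31 and 0.34 ± 0.31 (SE), and the limma adjusted p on average was 0.348. Acta2 on its brightest probe had 13.53 and 14.24 without and 13.97 and 13.58 with Nanog in intestine. In colon it was 14.40 and 14.47 on control arrays and 14.35 and 14.50 on Nanog arrays. The groups overlapped in both tissues, and the differences were -0.11 and -0.01. Tagln had 0.26 in intestine and 0.38 in colon, and desmin 0.36 and 0.16. Lmod1 had -0.31 and -0.59, with its lowest levels, 6.04 and 6.13, on replicate 2 of the 2 Nanog groups, the arrays high in acinar genes. The part of those arrays in this result was not tested beyond leaving them out, which gave 0.18 in intestine and -0.25 in colon. Mylk had 0.03 and -0.48, and Cnn1, near background, 0.46 and 0.26.

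Genes with several probes showed how far a single probe decides a value. The 3 dimmer Acta2 probes gave 0.29, 0.54 and 0.57 in intestine, against -0.11 for the brightest, and 0.00, 0.38 and 0.54 in colon, against -0.01. Averaging the 4 probes turned the sign of the Acta2 difference, to 0.32 in intestine and 0.23 in colon, and no probe passed the test. Between the tissues the dimmer Acta2 probes gave 0.91, 1.15 and 1.15 without Nanog, against 0.55 for the brightest. With Nanog they gave 0.62, 0.99 and 1.12, against 0.65. The brightest probe read 21376 on replicate 2 of colon with Nanog, where the array's maximum was 22430. Whether this lessened its differences was not tested. The 2 probes of Mylk gave 0.03 and 0.14 in intestine and -0.48 and -0.35 in colon. Smtn's 3 probes agreed in colon and ranged from -0.03 to 0.23 in intestine.

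**Figure D3:**
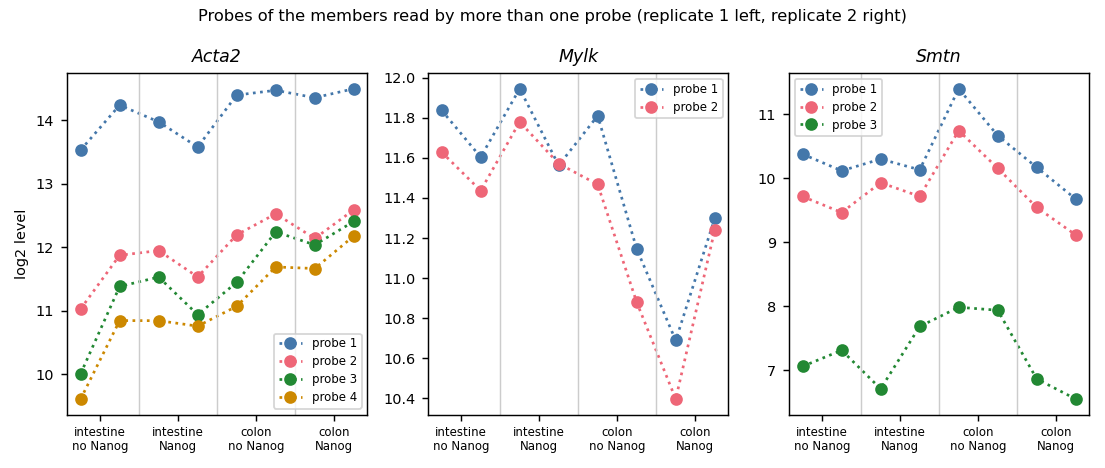
Log2 level (y axis) of each probe of Acta2, Mylk and Smtn on the 8 arrays, ordered by group (x axis) with replicate 1 at the left and replicate 2 at the right of each group. Probe 1 is the brightest. The 3 Smtn probes are all lower on the colon Nanog arrays than on the colon control arrays, by 1.11 to 1.25 log2 units on average.

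Profiles over the 8 arrays were compared with each gene centred on its own mean. The 3 nearest pairs all held Des, whose profile differed from that of Acta2, Tagln and Actg2 by a root mean square of 0.26 log2 units each. Acta2 and Actg2 differed by 0.31, Myh11 and Des by 0.32 and Myh11 and Smtn by 0.37, while Tagln lay 0.42 from Acta2 and 0.43 from Actg2. Tagln and Mylk were the farthest pair, at 0.96. The non-member genes nearest to the mean profile of the 9 genes were Sec24b, Ndufc2, Adnp, Atp6v1g1 and Ddx47, at 0.08 to 0.09 log2 units. Their own spread was 0.18 to 0.25, below the 0.37 to 0.63 of the contractile genes, and this likeness over 8 arrays is a description. The median SD between replicates was 0.14 to 0.25 for the members and 0.14 to 0.29 for all genes.

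Other proteins of the contractile machinery were examined as lists. Of 15 tested partners of the thin filament and myosin, 7 had higher and 8 lower values with Nanog in intestine and 6 and 9 in colon, with none called. Between the tissues 13 of 15 were higher in colon without Nanog and 14 of 15 with Nanog, beside 58.56% and 57.78% of all genes. Tropomyosin 2, Tpm2, had 0.80 and calponin 3, Cnn3, 1.01 without Nanog, with limma adjusted p = 0.0857 and 0.0644. Myh10, a nonmuscle myosin heavy chain, was called with Nanog (limma adjusted p = 0.045). It was below background on all 4 intestine arrays, and at least 1.47-fold higher in colon with Nanog. That bound sets the mean of the colon Nanog arrays against the lowest signal above background on each intestine Nanog array, or the probe's own where higher. Myh10 entered the test through the colon arrays alone, and its call was lost in 13 of 23 alternatives, including 6 of the 8 fits without 1 array, all but those without an intestine control (adjusted p up to 0.291).

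Among 30 tested proteins of the membrane, dense plaque and Z-body, 4 were called higher in colon without Nanog, Csrp1, Csrp2, Cav1 and Hspb1, beside 2.44% of all genes. With Nanog 3 were called, Csrp2, Hspb1 and Cryab, beside 3.18% of all genes. The LIM-domain protein gene Csrp2 was higher in colon by 1.45 ± 0.27 log2 units without Nanog (SE, limma adjusted p = 0.0261) and by 1.36 ± 0.27 with Nanog (adjusted p = 0.0306). Its colon levels were 11.78 to 12.36 and its intestine levels 10.56 to 10.77, with no overlap. Hspb1, a small heat shock protein, was higher by 1.23 and 1.29 (limma adjusted p = 0.0353 and 0.0275), caveolin gene Cav1 by 1.55 without Nanog (0.0322) and the chaperone Cryab by 1.53 with Nanog (0.0366). Most of these calls were lost when 1 array was left out. Without Nanog, Csrp2 lost it in 5 of 8 such fits (limma adjusted p up to 0.165) and Hspb1 and Cav1 in 6 of 8 (up to 0.168 and 0.166), among them every fit without a colon array. With Nanog, Csrp2 and Cryab lost it in 6 of 8 (up to 0.207 and 0.236) and Hspb1 in 5 of 8 (up to 0.177), again in every fit without a colon array. With Nanog, 18 of 30 had higher values in intestine and 15 of 30 in colon. In each 1 was called, Csrp1, beside 0.163% and 0.221% of all genes. Csrp1, a LIM-domain partner of actinin, rose by 4.92 ± 0.21 on average (SE, limma adjusted p = 0.000539), on 1 probe, while its paralog Csrp2 was not called. The Csrp1 probe was not above background on replicate 2 of intestine without Nanog, and its difference ran from 3.73 to 5.63 over 22 alternatives. The call was lost in 1 of them, without replicate 2 of both Nanog groups (adjusted p 0.108).

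Of 15 tested genes that set myosin phosphorylation and calcium, 0 were called with Nanog, and 6 had higher and 9 lower values in each tissue. Rgs2, a brake on receptor signalling through Gq, had levels of 4.99 and 5.28 in colon without Nanog and 6.28 and 6.36 with Nanog, a difference of 1.19 ± 0.22 (SE, limma adjusted p = 0.104). It was higher in colon than in intestine with Nanog by 1.28 (limma adjusted p = 0.0213), where replicate 2 of intestine with Nanog was below background. That difference ran from 0.54 to 1.99 over 23 alternatives, and the call was lost without that array and without either colon Nanog array (adjusted p up to 0.162). Phospholamban, Pln, which restrains the calcium pump of the sarcoplasmic reticulum, had signals from 116.59 to 168.59 on the control arrays and was below background on 3 of the 4 Nanog arrays, both of colon among them. It was not called in any comparison.

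Transcription factors and signals that act on smooth muscle genes had lower values with Nanog throughout the tested list. All 11 tested genes, of 22 on the array, were lower in intestine, with a median of -0.48, and all 11 in colon, with a median of -0.71, beside -0.01 over all genes. The Nanog arrays lay wholly below the controls for 7 of 11 in intestine, against 15.5% of all genes, and for 11 of 11 in colon, against 26.6%. Foxf2, counted here, was below background on every Nanog array and entered the test through the colon control arrays alone. Its lower value in colon therefore follows from the filter. On average of the tissues 1 was called, beside 1.2% of all genes. It was Klf4, a repressor of smooth muscle genes that is also made by surface epithelium. It fell by 1.66 ± 0.20 log2 units on average (SE, limma adjusted p = 0.0225), and its adjusted p was up to 0.117 in the 6 fits of 8, each without 1 array, that lost the call. Without replicate 2 of both Nanog groups it was 0.265. Myocd levels were 6.09 and 6.02 in intestine and 6.02 and 6.07 in colon without Nanog, and 5.31 and 4.73 and then 5.19 and 5.77 with Nanog. Every Nanog array was below every control array, and the average difference was -0.80 ± 0.21 (SE, limma adjusted p = 0.130). Myocd signals were low, from 83.79 to 152.85. On replicate 2 of intestine with Nanog 4 of the 11 genes were below background, Myocd, Mef2c, Foxf2 and Tgfb1. Mef2c, a MADS-box partner, had -1.14 (limma adjusted p = 0.117) and Srf -0.27 (limma adjusted p = 0.427). These 2 genes were named after their values were seen, Mef2c for its size and Srf as the factor that binds the CArG box. Without a detection filter 14 of 22 were lower in intestine and 17 of 22 in colon, and without replicate 2 of intestine with Nanog 9 of 11 in intestine.

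**Figure D4:**
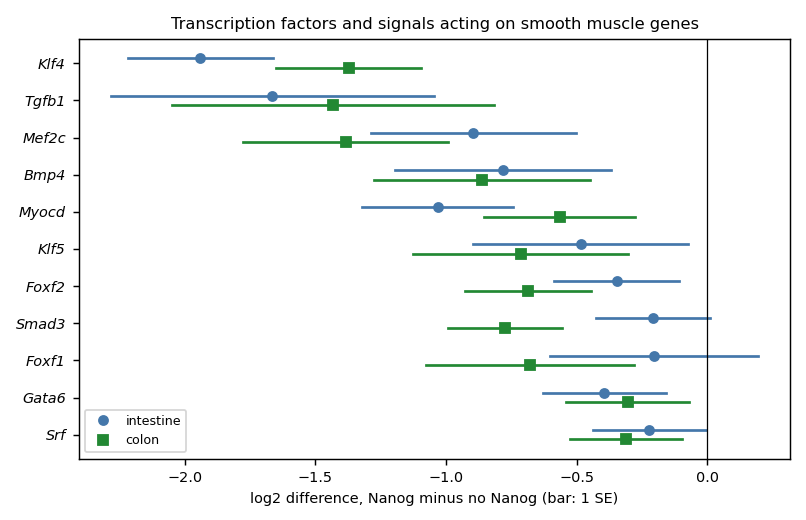
Log2 difference with Nanog minus without Nanog (x axis) of the 11 tested transcription factors and signals (y axis) in intestine (circles) and colon (squares), with bars of 1 SE. All points lie below 0, from -1.94 to -0.20 in intestine and from -1.43 to -0.30 in colon.

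Markers of other cells moved with the same comparisons, and their part in the results above was not tested. Without Nanog, 14 of 14 fibroblast and matrix genes were higher in colon, with a median of 1.20 beside 0.63 for the members. So were 8 of 8 pericyte, 8 of 9 endothelial, 5 of 5 neuron and glia and 7 of 7 B and plasma cell genes. Their medians were 0.15, 0.38, 0.67 and 0.83 log2 units, beside 0.11 over all genes. The last 3 lists, and the fibroblast and matrix list with Col1a2, hold genes that entered through colon arrays alone. Epithelium had 7 of 11, skeletal and cardiac muscle 1 of 4, acinar genes 3 of 19, and all genes 58.56%. Among 14 tested genes of fibroblasts and matrix, 13 were at higher levels on the Nanog arrays in each tissue. In colon 1 was called, beside 0.221% of all genes. On average of the tissues 4 were called, Col1a1, Col1a2, Sparc and Eln, beside 1.2% of all genes. Col1a2 entered the test through the colon Nanog arrays alone. Between the tissues with Nanog 7 were called higher in colon, Col1a2 among them, beside 3.18% of all genes. Colon with Nanog is the high group there too, so the filter favoured a higher value of Col1a2. The summed level of the list was 5478 to 7907 in intestine without Nanog and 7041 to 15060 with Nanog. In colon it was 14101 to 16497 on control arrays and 31488 to 32317 on Nanog arrays. Elastin, Eln, also a product of smooth muscle, rose by 2.56 ± 0.29 log2 units on average (SE, limma adjusted p = 0.0182). That call was lost in 6 of the 8 fits without 1 array, all but those without an intestine control (adjusted p up to 0.0887), and in 8 of 23 alternatives in all. Of 11 epithelial genes 10 had lower values in intestine and 9 in colon, with 0 called. The summed epithelial level ran from 52083 to 66067 in intestine without Nanog and from 32044 to 50704 with Nanog, and in colon from 58442 to 61698 without and from 41535 to 47764 with Nanog.

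Mesothelium covers the outer muscle coat, and 4 of its 4 tested genes had lower values in intestine and 3 of 4 in colon. The summed level of the 4, from 1339 to 6747 over all arrays, was mostly that of the keratin gene Krt19, at 1219 to 6426, which the epithelial list also holds. Without Krt19 the sum of the other 3 genes was 240 to 430 in intestine without Nanog and 120 to 175 with Nanog, and in colon 276 to 320 on control arrays and 107 to 141 on Nanog arrays. Krt19 was set aside after its values were seen. Upk3b had signals from 149.3 to 359.86 without Nanog and was below background on all 4 Nanog arrays (limma adjusted p = 0.0276 on average). Upk1b, from 142.18 to 248.8 without Nanog, was below background on both colon Nanog arrays (limma adjusted p = 0.0335 on average). These were the 2 genes of the list called on average, beside 1.2% of all genes. Upk3b entered the test through the control groups alone. Both calls were lost in 10 of 22 alternatives, including 6 of the 8 fits without 1 array, all but those without an intestine control (adjusted p up to 0.131 and 0.149). Of the interstitial cells of Cajal, the pacemaker cells of the muscle coat, 2 genes were tested and both had lower values with Nanog in each tissue, with 0 called. Their channel gene Ano1 was higher in colon than in intestine by 2.92 ± 0.54 with Nanog (SE, limma adjusted p = 0.0249) and by 2.33 ± 0.54 without Nanog (adjusted p = 0.0548). Its probe was below background on replicate 1 of intestine with Nanog. The difference with Nanog ran from 1.71 to 3.75 over 23 alternatives, and the call was lost without any 1 of the 4 Nanog arrays (adjusted p up to 0.153). The call without Nanog was gained without intestine control replicate 2 (adjusted p 0.0137).

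Pericyte and vascular smooth muscle genes were higher in 5 of 8 cases in intestine and 2 of 8 in colon with Nanog, with 0 called, and the pericyte gene Rgs5 had 1.81 ± 0.36 on average (SE, limma adjusted p = 0.0753). Of the 9 endothelial genes 6 had higher values in intestine and 1 in colon, and of 5 enteric neuron and glia genes 4 and 2. Skeletal and cardiac muscle genes, which would mark striated muscle, had 3 of 4 higher in intestine and 2 of 4 in colon, at summed levels of 259 to 717 over all arrays. Adipocyte genes had lower values in 4 of 5 in intestine and 5 of 5 in colon. All 7 genes of B and plasma cells stood lower in both tissues, with 1 called in colon, beside 0.221% of all genes. Of these, Tnfrsf17 was above background on the colon control arrays alone, and Cd79a was below background on both colon Nanog arrays. Both entered the test through control groups alone, so their lower values in colon follow from the filter.

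**Figure D5:**
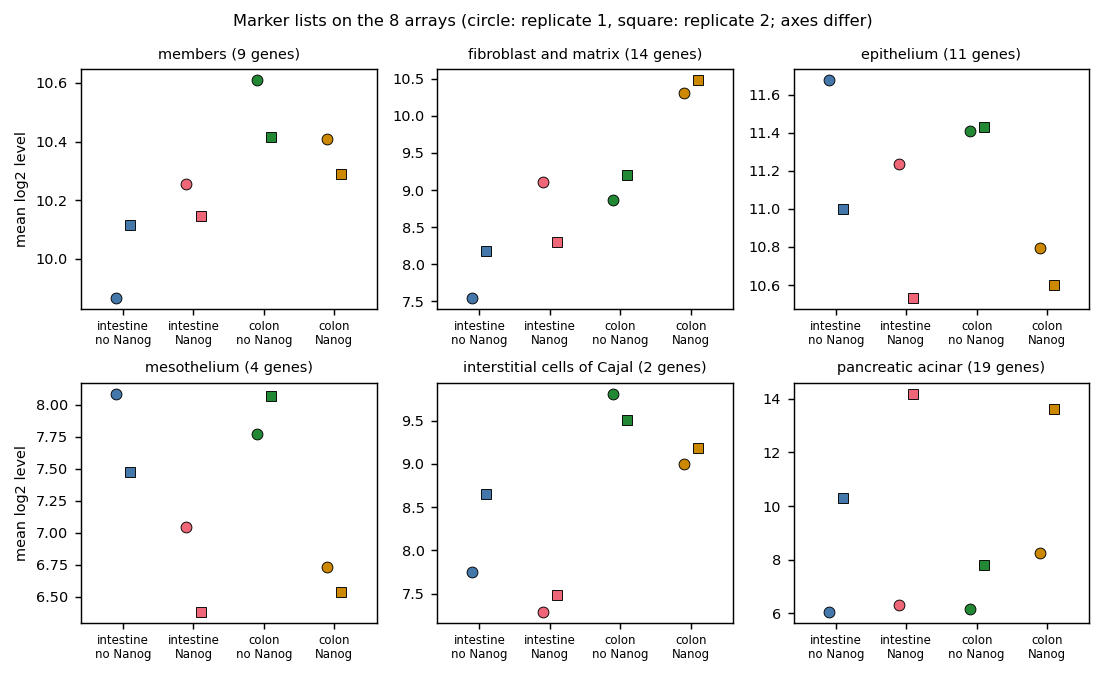
Mean log2 level (y axis, differing between panels) of the tested genes of the contractile group and of 5 marker lists on the 8 arrays, by group (x axis), a circle for replicate 1 and a square for replicate 2. Acinar genes are at 14.17 and 13.60 on replicate 2 of the Nanog groups, fibroblast and matrix genes are highest in colon with Nanog, and the mesothelial list, which includes Krt19, is lower with Nanog in both tissues.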

How the data were processed

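Total RNA was amplified to biotin-labelled cRNA and hybridized to Illumina arrays, per the labels' protocols. BeadStudio 3.2, RMA and lumi stand in the submitters' processing notes, with no order or settings. The deposited table gives for each probe an unscaled intensity that still holds its background, and a detection p-value in 798 steps. The authors' deposited log2 values have equal quantiles in all arrays.

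Intensities were background-corrected in limma 3.58.1 (R 4.3.3) with nec, which infers the control signal from detection p-values (offset 16), taken to log2 and quantile-normalized. Quantile normalization before log2 was run first. The order was changed to that of limma's neqc after the counts of called genes had been seen, and the member calls were the same under both. Probes with a detection p under 0.01 on both arrays of a group entered (12064), and the brightest probe stood for each of 8607 genes. No symbol was given for 1719 probes. A group-means model took in all 8 arrays (4 residual and 3.07 prior degrees of freedom), with Benjamini-Hochberg adjustment over all genes at 0.05. The fit was tested on simulated data. The number of arrays, 2 per group, limits the precision.

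The members, the lists and the alternatives were chosen with earlier results of these data known. Members are always named. From each other list the rule names called genes, up to 3 per comparison by smallest p, and otherwise up to 2 by smallest p. Which of these are printed was decided after their values were seen, and Mef2c and Srf lie outside the rule. The 5 genes most like the members have the smallest root mean square difference from the members' mean centred profile.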

Additional observations from a re-analysis of the deposited data

Results flagged for a closer look

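Myh11 was picked out because both Nanog arrays lay above both control arrays in intestine and both lay below in colon. The difference of the effects, colon minus intestine, was -1.08 ± 0.38 log2 units (SE, unadjusted p = 0.0240), with a limma adjusted p of 0.998 over 8607 genes, so the difference did not pass its test. It lay between -1.39 and -0.77 in the 8 fits that each left out 1 array, and between -1.39 and -0.59 over all 23 alternatives. Before normalization the Myh11 signal on replicate 2 of intestine with Nanog, 1528.89, was below both intestine controls, 2215.38 and 1895.4. The median signal of that array was 84.57, against 107.71 and 104.42 on these controls.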

How the results depend on the processing

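In the Nanog comparisons and in the difference of the Nanog effects, 0 members were called under every alternative run. Between the tissues without Nanog 1 member was called in the fit reported. It was 0 with the authors' deposited values, median scaling, cyclic loess, no detection filter, array weights, only the 4 arrays compared, or without replicate 2 of both Nanog groups, 2 without background correction, with an offset of 50 or with a variance trend and robust estimation, and 3 with arrays of the same number and Nanog status as a random animal block. With Nanog it was 0 without replicate 2 of both Nanog groups. Leaving out each array in turn gave 0 to 1 in both tissue comparisons. The cause was not tested. Quantile normalization before log2, added after seeing the data, gave the reported count of members in all 6 comparisons, with 16, 477 and 566 genes called in intestine and between tissues without and with Nanog, against 14, 473 and 572. Replicate numbers were shared by all groups, but the labels state no pairing and same-numbered deviations correlated with r from 0.11 to 0.47; with the replicate block 0 members were called between tissues without Nanog (Tagln adjusted p = 0.0516).

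Median scaling moved the median of all genes by -0.38 in intestine, -0.17 on average, 0.41 for the difference of effects and 0.40 between tissues with Nanog. It turned the sign in intestine of Tagln (-0.18), Des (-0.0714) and Mylk (-0.39), on average of Myh11 (-0.0768), for the difference of effects of Acta2 (-0.0001), Actg2 (0.10), Cnn1 (0.0741), Des (0.30) and Lmod1 (0.0841), and between tissues with Nanog of Lmod1 (0.27), Myh11 (0.10) and Smtn (0.0381). Cyclic loess turned Acta2 in intestine (0.32), on average (0.15) and for the difference (-0.34). The mean of a gene's probes turned Acta2 in intestine (0.32), colon (0.23), on average (0.28) and for the difference (-0.0951), and Smtn in intestine (0.0712). Without replicate 2 of both Nanog groups the sign turned in intestine for Acta2 (0.0897), Cnn1 (-0.0949), Lmod1 (0.18) and Smtn (0.0532), on average for Acta2 (0.0052), for the difference for Acta2 (-0.17) and Cnn1 (0.32), and between tissues with Nanog for Cnn1 (0.10). None of these values passed the test.

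Leaving out 1 array turned further signs. In intestine the ranges were -0.46 to 0.24 for Acta2, -0.0949 to 1.01 for Cnn1, -0.16 to 0.22 for Mylk, -0.81 to 0.18 for Lmod1 and -0.16 to 0.10 for Smtn, and in colon -0.0793 to 0.0619 for Acta2. On average they were -0.24 to 0.12 for Acta2 and -0.0422 to 0.27 for Myh11. For the difference they were -0.25 to 0.45 for Acta2, -0.62 to 0.15 for Actg2, -0.0329 to 0.27 for Tagln, -0.75 to 0.35 for Cnn1 and -0.77 to 0.21 for Lmod1. Between tissues they were -0.53 to 0.10 for Cnn1 and -0.58 to 0.0895 for Mylk without Nanog, and -0.96 to 0.14 for Cnn1 and -0.56 to 0.43 for Lmod1 with Nanog. Over all alternatives, not only those without 1 array, the calls across all genes ranged from 0 to 71 in intestine, 0 to 167 in colon, 0 to 218 on average, 0 to 20 for the difference, and 140 to 779 and 59 to 946 between tissues without and with Nanog.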
